A study of Mus musculus with 8 samples.

Results

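Distal chromosome 7 of the mouse carries a pair of neighbouring imprinted domains, and 8 of their genes, H19, Igf2, Ascl2, Cd81, Kcnq1ot1, Cdkn1c, Slc22a18 and Phlda2, were followed here. They were taken by gene symbol, 1 entry per symbol, from 50902 genes in the deposited RNA-seq table, and all 8 were found. RNA was sequenced from E14 mouse embryonic stem cells (ESCs) kept in N2B27 medium with LIF and 2i (inhibitors of MEK and GSK3 used for ground-state culture). The cells carried a Flag- and HA-tagged, siRNA-resistant BAZ2A transgene, either wild-type (ESC + F/H-BAZ2Ar WT, 4 libraries) or lacking the RNA-binding TAM domain (ESC + F/H-BAZ2Ar ΔTAM, 4 libraries). Both conditions received siRNA against endogenous Baz2a and were collected 3 days later, so the comparison asks what changed when the only resistant BAZ2A lacked TAM. The transgenes were integrated with PiggyBac transposase, and clones grown from single cells were chosen for transgene levels comparable to endogenous BAZ2A, so the domain and differences between clones cannot be told apart. Whether replicates were separate cultures is not stated, so p-values measure the spread between these libraries, which may be technical.

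In an imprinted gene the copy inherited from a given parent is silenced. In the first domain a differentially methylated control region upstream of H19 binds CTCF on the unmethylated maternal copy, which keeps shared enhancers from Igf2 and leaves them to H19. In the second, the noncoding RNA Kcnq1ot1 starts at a control region inside an intron of Kcnq1 on the paternal copy and silences genes on both of its sides in cis, among them Cdkn1c, Slc22a18 and Phlda2 in many tissues and Ascl2 and Cd81 mainly in the placenta. These libraries give the summed RNA of both copies, so parental expression was not measured.

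Promoters of 6 of the 8 genes were matched in RefSeq sequence of GRCm38.p6; H19 and Cdkn1c are named only. The 4 shown belong to Cd81, by far the most abundant of the genes, Kcnq1ot1, the noncoding RNA of the second domain, and Ascl2 and Phlda2, whose calls on RPKM changed without a single library. Each runs 5′ to 3′ on the gene's strand from 250 bases before to 50 after the RefSeq start, and capitals mark the GC box GGGCGG, the TATA motif TATAAA and the CCAAT box on either strand.
Cd81 (chr7:143052500-143052799, plus strand): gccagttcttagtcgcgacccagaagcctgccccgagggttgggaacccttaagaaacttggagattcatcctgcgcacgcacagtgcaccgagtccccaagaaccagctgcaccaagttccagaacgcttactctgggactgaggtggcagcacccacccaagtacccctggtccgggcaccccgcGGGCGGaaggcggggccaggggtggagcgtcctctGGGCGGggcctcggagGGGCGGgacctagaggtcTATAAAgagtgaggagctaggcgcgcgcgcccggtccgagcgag
Kcnq1ot1 (chr7:143296498-143296797, minus strand): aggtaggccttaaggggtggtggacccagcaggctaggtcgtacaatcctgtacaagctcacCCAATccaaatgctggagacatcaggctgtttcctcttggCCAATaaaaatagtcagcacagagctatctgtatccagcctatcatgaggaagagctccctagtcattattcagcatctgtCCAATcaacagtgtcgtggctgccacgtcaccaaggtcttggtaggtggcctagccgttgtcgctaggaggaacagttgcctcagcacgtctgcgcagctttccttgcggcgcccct
Ascl2 (chr7:142969215-142969514, minus strand): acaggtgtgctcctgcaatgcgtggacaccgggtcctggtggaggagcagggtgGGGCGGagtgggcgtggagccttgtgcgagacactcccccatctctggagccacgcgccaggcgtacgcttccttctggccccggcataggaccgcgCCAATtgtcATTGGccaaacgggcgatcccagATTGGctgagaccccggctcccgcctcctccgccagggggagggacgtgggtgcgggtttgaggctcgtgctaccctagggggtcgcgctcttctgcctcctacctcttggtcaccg
Phlda2 (chr7:143502475-143502774, minus strand): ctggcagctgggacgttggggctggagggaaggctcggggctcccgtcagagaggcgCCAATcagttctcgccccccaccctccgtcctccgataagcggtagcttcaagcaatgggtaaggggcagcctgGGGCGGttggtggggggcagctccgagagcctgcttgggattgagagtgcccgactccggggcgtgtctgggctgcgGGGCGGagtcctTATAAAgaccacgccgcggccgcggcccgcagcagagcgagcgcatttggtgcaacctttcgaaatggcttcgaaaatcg
Cd81 held 3 GC boxes and 1 TATA motif, and Phlda2 held 2 GC boxes, 1 TATA motif and 1 CCAAT box. Ascl2 held 1 GC box and 3 CCAAT boxes, while Kcnq1ot1 held 3 CCAAT boxes and neither of the other motifs. Of 32851 promoters of this length 35.7% held the GC box, 13.6% the TATA motif and 37.4% the CCAAT box. CpG dinucleotides numbered 26 in the Phlda2 promoter, 23 in those of Cd81 and Ascl2 and 9 in that of Kcnq1ot1, against a median of 7. These matches describe the letters of the windows and are not binding sites.

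The libraries held 6560881 to 8662855 reads on genes, recovered from the deposited RPKM (reads per kb of genomic span, scaled to library size), and 18913 to 19798 genes above 0. Baz2a itself, which sums the transgene and what the siRNA left, stood at 10.5 ± 0.529 RPKM (SD, n = 4) in ESC + F/H-BAZ2Ar WT and 18.3 ± 0.824 (SD, n = 4) in ESC + F/H-BAZ2Ar ΔTAM, a log2 difference of 0.79 (limma, adjusted p = 3.39e-05). The conditions thus differed in the amount of Baz2a RNA as well as in the TAM domain, and these cannot be told apart. The summed reads of 10 pluripotency markers ran from 7916 to 7957 RPM (reads scaled to 1000000 reads on genes) in WT and from 6815 to 7177 in ΔTAM, without overlap. Of the 10, 6 fell on RPKM (limma, against 15.9% of all genes tested), among them Sox2 and Klf4, while Pou5f1, Nanog, Zfp42 and Tfcp2l1 gave -0.06 to 0.02 and were not called. The 10 endoderm markers summed to 319 to 338 RPM in WT and 159 to 181 in ΔTAM, but this sum was mostly Lama1, a laminin subunit that averaged 1797 reads and fell by 1.05 on the log2 scale (limma-voom adjusted p = 1.93e-18). The other 9 averaged 0 to 35.5 reads, Dab2 was higher with at most 10 reads, and the median over the 7 tested on reads was 0.39. Sums of 13 trophoblast markers (89.2 to 92.8 against 86.0 to 102) and of 9 mesoderm and fibroblast markers (165 to 197 against 156 to 176) overlapped. The trophoblast markers went both ways, since all 7 tested on reads passed, 3 higher (Cdx2, Tfap2c and Gata3) and 4 lower (Eomes, Esx1, Krt8 and Krt18), against 16.2% higher and 15.8% lower of all genes on reads, and Cdx2 was not called on RPKM (limma adjusted p = 0.130). Of these lists, the markers at 0 in the 8 libraries were Tpbpa and Prl3d1 of trophoblast, Afp and Ttr of endoderm and Col3a1 of fibroblasts, while others such as Cdx2 (98.4 reads on average), T (269) and Vim (1003) were present. In bulk RNA, fewer cells of a type and less RNA per cell cannot be told apart, and the part of these shifts in the results below was not tested.

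To compare levels between genes, reads were expressed as RPM per exonic kb. Cd81 averaged 84.5 over the 8 libraries, 51.6-fold more than the next gene. Phlda2 followed at 1.64, Slc22a18 at 1.54 and Ascl2 at 1.24, then Cdkn1c at 0.469, H19 at 0.437, Igf2 at 0.0927 and Kcnq1ot1 at 0.0708. The order below Cd81 is loose. Ranges over libraries overlapped between all neighbours in it except Cd81 and Phlda2, and H19 and Igf2. Cd81 took 92.6% to 95.1% of the reads of the 8 genes in every library, and the other 7 together had only 79 to 149 reads, or 14.5 to 19.4 RPM in WT and 12.0 to 16.2 in ΔTAM. These genes were thus mostly near the limit of counting at this depth, and their intervals are wide.

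**Figure D1:**
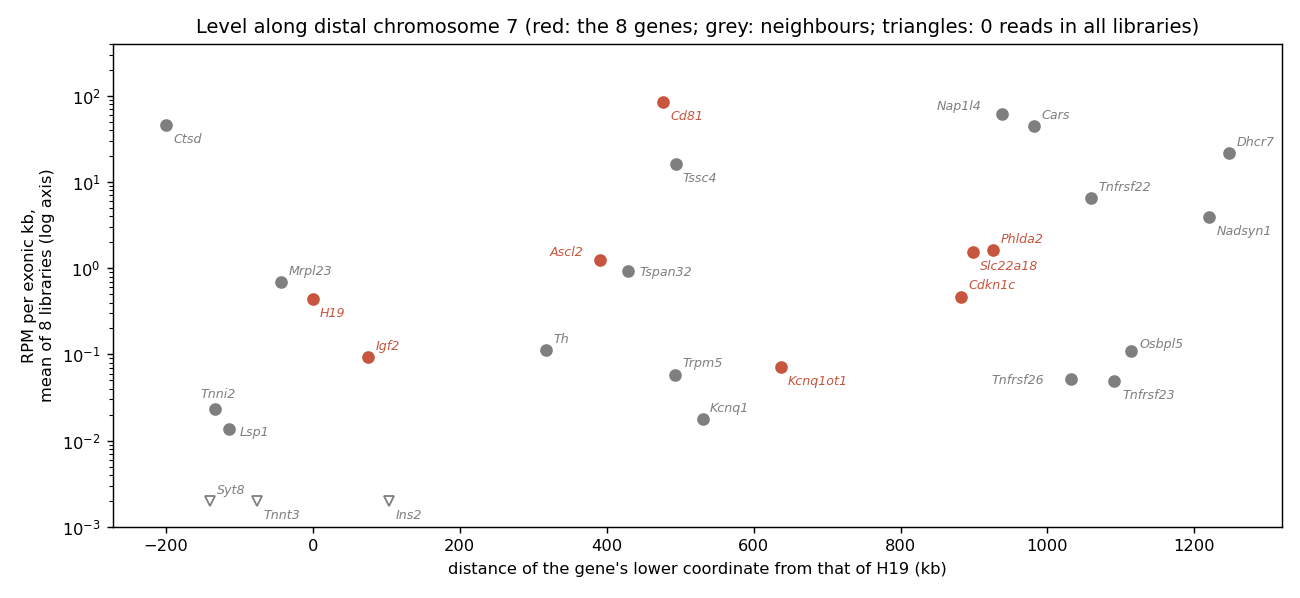
Mean level over the 8 libraries (RPM per exonic kb, log axis) against the distance in kb of each gene's lower coordinate from that of H19, for the 8 genes (red) and 20 neighbours (grey). Cd81 at 84.5 stands among expressed genes such as Nap1l4 and Cars, while the other 7 imprinted genes lie between 0.0708 and 1.64; open triangles mark the 3 neighbours with 0 reads.

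Changes were tested with limma on log2(RPKM + 0.1) over 9000 genes averaging 0.1 RPKM or more, a level that only Cd81, Ascl2 and Phlda2 reached. Since RPKM by genomic span puts long or intron-rich genes low, the recovered reads of 17962 genes averaging 1 read or more per library, the 8 genes included, were also tested with limma-voom. In the RPKM test 35.8% of all genes passed an adjusted p of 0.05 (15.9% lower and 19.9% higher, a balance that quantile normalization turned to 1722 lower and 1568 higher), and in the read test 32% passed (15.8% lower and 16.2% higher). Of the 3 genes tested on RPKM, 1 passed, and of the 8 tested on reads, 3 passed, shares close to these backgrounds. The median log2 fold change of the 8 on reads was -0.26, against 0.0024 over all genes tested.

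Cd81, a tetraspanin that organises receptors in the cell membrane, was the only one of the 8 to fall in both tests. It lies at chr7:143052739-143067934 (mm10, plus strand). It stood at 2.82, 2.78, 2.64 and 2.59 RPKM in WT replicates 1 to 4 and at 2.16, 2.07, 2.03 and 1.98 in ΔTAM replicates 1 to 4. Every ΔTAM library lay below every WT library, which was true of 16.7% of all genes tested on RPKM. Mean RPKM went from 2.71 ± 0.112 to 2.06 ± 0.0736 (SD, n = 4 each), a fall of 24.0%. The log2 fold change was -0.38 (SE 0.038, 95% interval -0.47 to -0.29, limma adjusted p = 2.93e-04), and the exact two-sided permutation p was 0.0286, the smallest that 4 against 4 can give. Each value rests on 1377 to 2179 reads. The change is smaller than the 0.58 that the study used as its threshold. The 5′ end of Cd81 overlaps R74862 over 947 bases, a gene with 7 to 17 reads per library.

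Of 8 other tetraspanin and Phlda genes listed, 5 were tested on RPKM and 2 fell, where 15.9% of all genes did: Cd37, a tetraspanin of leukocytes, by 0.68 on the log2 scale (SE 0.087, adjusted p = 9.12e-04, limma), and Cd63, found in late endosomes, by 0.17 (SE 0.036, adjusted p = 0.00938). Cd9, a close partner of Cd81, gave 0.01 (adjusted p = 0.691) and Cd151 -0.06 (adjusted p = 0.407). Over the 8 libraries, the genes whose log2 RPKM followed that of Cd81 most closely among 2148 genes were Apela (Pearson r = 0.993), which encodes a ligand of the apelin receptor, and 2410006H16Rik (r = 0.992). As many as 200 genes had r above 0.9 with it, and the points share their libraries and the condition.

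**Figure D2:**
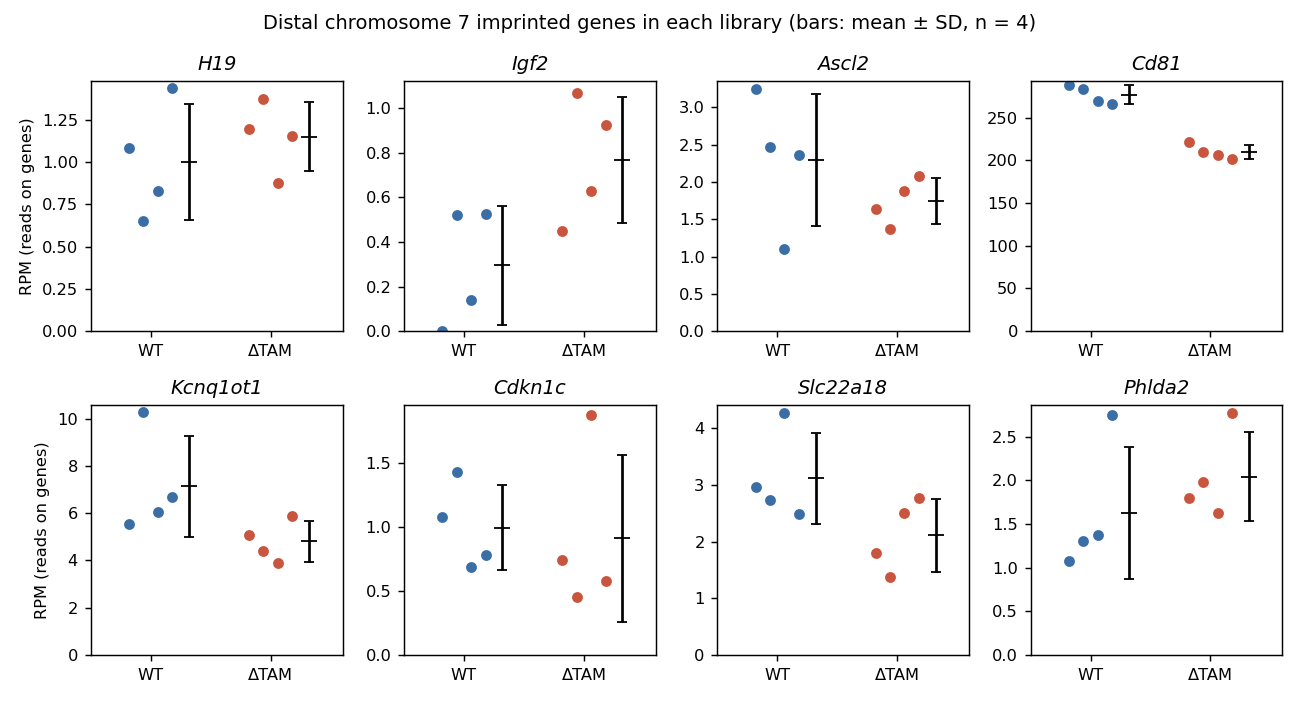
RPM of the 8 genes in each library (points, replicates 1 to 4 from left to right) with the mean ± SD of each condition, each panel on its own linear axis from 0. Only the Cd81 panel shows conditions that do not overlap; in the Igf2 panel 3 ΔTAM points lie above every WT point, and in the Kcnq1ot1 panel 3 lie below.

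Kcnq1ot1 is the long noncoding RNA that silences its domain in cis. The deposited entry spans chr7:143212155-143296549 (minus strand, within Kcnq1). It lacks the annotated 3′ end, which GENCODE vM21 places at 143203458, and reads beyond the entry would not be in these counts. Kcnq1ot1 had 41, 79, 44 and 51 reads in WT replicates 1 to 4 and 34, 29, 31 and 51 in ΔTAM replicates 1 to 4. This is 5.54 to 10.3 RPM in WT and 3.88 to 5.89 in ΔTAM, so 3 ΔTAM libraries lay below the lowest WT library and the conditions overlapped. Its mean of 0.0106 RPKM kept it out of the RPKM test. On reads it was lower in ΔTAM, with a log2 fold change of -0.53 (SE 0.19, 95% interval -0.93 to -0.13, limma-voom adjusted p = 0.0376), while the exact permutation p on RPKM was 0.0571. Each ΔTAM library lay below the WT library of the same number, and with the replicate block the value was -0.54 (adjusted p = 0.0150). WT replicate 2 holds the highest value. Leaving out single libraries gave -0.65 to -0.34, and the call was lost without WT replicate 2 (-0.34, adjusted p = 0.200), ΔTAM replicate 2 (-0.50, adjusted p = 0.0761) or ΔTAM replicate 3 (-0.42, adjusted p = 0.143). Kcnq1, the potassium channel gene whose intron holds it, had 0 to 2 reads per library. The transcript is nuclear and largely unspliced and the libraries were poly(A)-enriched, so its level here covers only what that step captures. Strand use in the counting is not stated.

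Among the genes that Kcnq1ot1 silences in cis, Cdkn1c, Slc22a18 and Phlda2 lie together and Ascl2 stands apart towards Igf2. None of the 4 passed either test with all libraries (limma on RPKM or limma-voom on reads). Their intervals on reads include 0, that of Slc22a18 only narrowly (-1.06 to 0.032).

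Cdkn1c (chr7:143458339-143461050, minus strand) encodes p57Kip2, an inhibitor of cyclin-dependent kinases that restrains fetal growth. It had 8, 11, 5 and 6 reads in WT and 5, 3, 15 and 5 in ΔTAM. The highest and the lowest library were both ΔTAM. The log2 fold change on reads was -0.24 (95% interval -1.12 to 0.65, limma-voom adjusted p = 0.727), and without single libraries it ran from -0.65 (without ΔTAM replicate 3) to -0.038 (without ΔTAM replicate 2). Of 6 other inhibitors of the Cip/Kip and Ink4 families, 5 were tested on RPKM and 2 rose, where 19.9% of all genes did: Cdkn1a (p21), a p53 target, by 0.60 (SE 0.035, limma adjusted p = 3.63e-05), and Cdkn1b (p27) by 0.14 (SE 0.046, adjusted p = 0.0422). On reads Cdkn1b missed the threshold (limma-voom adjusted p = 0.0705), and only 1 of the 6, Cdkn1a, was called higher, where 16.2% of all genes were.

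Slc22a18 (chr7:143473736-143499334, plus strand) encodes a membrane protein of the organic cation transporter family. It had 22, 21, 31 and 19 reads in WT and 12, 9, 20 and 24 in ΔTAM. ΔTAM replicates 1 and 2 lay below every WT library, and replicates 3 and 4 within their range. The log2 fold change on reads was -0.51 (SE 0.27, 95% interval -1.06 to 0.032, limma-voom adjusted p = 0.149), close in size to that of Kcnq1ot1 but with a wider interval.

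Phlda2 (chr7:143501545-143503150, minus strand) encodes a small PH-domain protein that limits growth of the placenta. It had 8, 10, 10 and 21 reads in WT and 12, 13, 13 and 24 in ΔTAM. Replicate 4 was the highest in both conditions. Mean RPKM was 0.151 ± 0.0696 in WT and 0.190 ± 0.0470 in ΔTAM (SD, n = 4), and the log2 fold change was 0.23 (SE 0.19, 95% interval -0.21 to 0.68, limma adjusted p = 0.381). Without WT replicate 4 it was 0.41 and passed on RPKM (adjusted p = 0.0462), but not on reads (0.68, limma-voom adjusted p = 0.139). Without ΔTAM replicate 4 it was 0.13 on RPKM (adjusted p = 0.653), and without WT replicate 1 it was 0.14. Each ΔTAM library lay above the WT library of the same number, and with the replicate block the interval on RPKM was 0.019 to 0.45 (unadjusted p = 0.0381, limma adjusted p = 0.0925) and that on reads -0.29 to 0.91. The genes most like it over the 8 libraries were Tug1 (r = 0.874), a long noncoding RNA, and Srsf5 (r = 0.860), a splicing factor. With 8 to 24 reads per library behind Phlda2, 0 genes above r = 0.9 and 2148 genes compared, this ranking is no finding.

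Ascl2 (chr7:142966829-142969264, minus strand) encodes a basic helix-loop-helix factor needed for the spongiotrophoblast of the placenta. It had 24, 19, 8 and 18 reads in WT and 11, 9, 15 and 18 in ΔTAM. WT replicate 3 lay below every ΔTAM library in RPM, and the other 3 WT libraries lay above every one of them. Mean RPKM was 0.140 ± 0.0542 in WT and 0.107 ± 0.0187 in ΔTAM (SD, n = 4), with a log2 fold change of -0.19 (SE 0.17, 95% interval -0.58 to 0.20, limma adjusted p = 0.421). Without WT replicate 3 it was -0.35 and passed on RPKM (adjusted p = 0.0387), but not on reads (-0.58, limma-voom adjusted p = 0.133). Without WT replicate 1 it was -0.075 on RPKM (adjusted p = 0.755) and -0.096 on reads. AA414768 (r = 0.843) and Tigd2 (r = 0.820) were the genes most like it, again the highest of 2148 correlations for a gene with 8 to 24 reads, with 0 genes above r = 0.9, and no finding.

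In the H19 domain, Igf2 (chr7:142650766-142666816, minus strand) encodes a fetal growth factor that signals through the IGF1 and insulin receptors. It had 0, 4, 1 and 4 reads in WT and 3, 7, 5 and 8 in ΔTAM, or 9 against 23 in all. The count of 0 in WT replicate 1 allows up to 3 reads, counting error only. A set of 3 ΔTAM libraries lay above the highest WT library, and ΔTAM replicate 1 lay within the WT range. Mean RPKM was 0.00274 ± 0.00248 in WT and 0.00713 ± 0.00263 in ΔTAM (SD, n = 4), a ratio of 2.60. The log2 fold change on reads was 1.59 (SE 0.62, 95% interval 0.33 to 2.86, limma-voom adjusted p = 0.0485), and it was higher by the study's thresholds (at least 0.58 with an unadjusted p under 0.05), as were 6.24% of all genes tested on reads. Each ΔTAM library also lay above the WT library of the same number, but with that number as a block the value was 1.27 and missed the threshold (adjusted p = 0.0677), and the exact permutation p was 0.0857. Leaving out single libraries gave 0.94 to 1.98, the lowest without WT replicate 1 (adjusted p = 0.243), and 3 of 8 such fits kept the call, those without WT replicate 2, WT replicate 4 or ΔTAM replicate 1. Its levels here, 0 to 0.186 RPM per exonic kb, were a small fraction of those of Cd81 in every library.

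H19 (chr7:142575529-142578143, minus strand) is a long noncoding RNA and the host of miR-675. It had 8, 5, 6 and 11 reads in WT and 8, 9, 7 and 10 in ΔTAM, with every ΔTAM library inside the WT range in RPM. Mean RPKM was 0.0568 ± 0.0193 in WT and 0.0656 ± 0.0117 in ΔTAM (SD, n = 4). The log2 fold change on reads was 0.22 (95% interval -0.53 to 0.97, limma-voom adjusted p = 0.703), and without single libraries it ran from 0.038 (without WT replicate 2) to 0.41 (without WT replicate 4). The entries for Mir675 inside H19 and for Mir483 and Igf2os over Igf2 had 0 reads in the 8 libraries, though short RNAs are not retained by this kind of library.

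**Figure D3:**
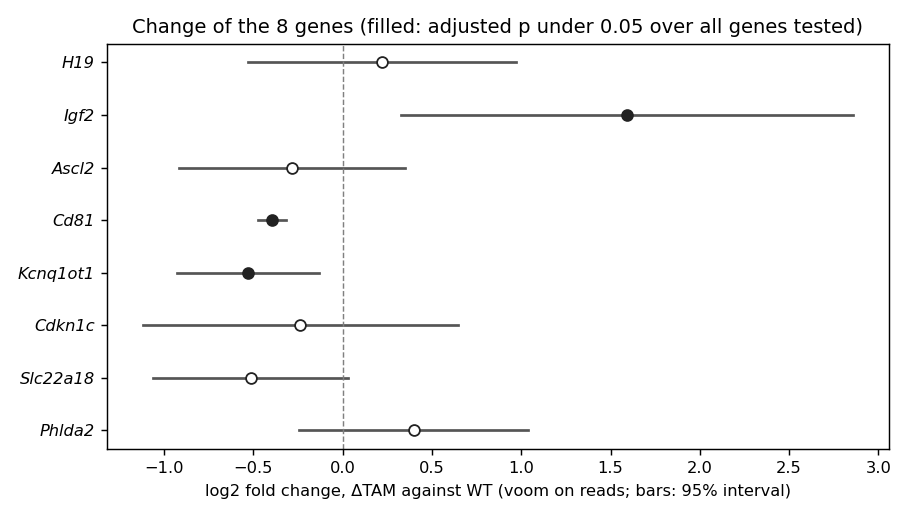
Log2 fold change of ΔTAM against WT for the 8 genes (limma-voom on reads) with 95% intervals, filled where the adjusted p over 17962 genes was under 0.05. Cd81 has a narrow interval below 0 (-0.47 to -0.32), Kcnq1ot1 and Igf2 have wide intervals on either side, and the other 5 intervals include 0.

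Of 17 genes of the insulin-like growth factor axis, 6 were tested on RPKM, of which 3 rose and 1 fell (19.9% and 15.9% of all genes did). Igfbp2, a secreted IGF-binding protein, fell by 0.78 on the log2 scale (SE 0.072, limma adjusted p = 2.00e-04). Igfbp3, another binding protein, rose by 0.63 (SE 0.11, adjusted p = 0.00339), and the RNA-binding proteins Igf2bp1 and Igf2bp2 rose by 0.18 (SE 0.025) and 0.14 (SE 0.031). On reads 14 were tested, 6 rose and 3 fell (16.2% and 15.8% of all genes did). The largest rise there was that of Igfbp5, a further binding protein, by 1.42 (SE 0.35, limma-voom adjusted p = 0.00215), and Irs2, a substrate of both receptors, rose by 0.47 (SE 0.11). Igf1r, the main receptor of IGF2, fell by 0.59 on reads (SE 0.098) and Insr, the insulin receptor, by 0.39 (SE 0.076), while Grb10, an adaptor that dampens both receptors, rose by 0.86 (SE 0.068). Igf2r, which clears IGF2, gave -0.06 (limma-voom adjusted p = 0.187), and Igf1 and Ins2 had 0 reads in all libraries.

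Of 20 neighbours, 6 were tested on RPKM and 2 fell in limma, where 15.9% of all genes did. On reads 14 were tested and 2 fell, a share close to the 15.8% of all genes. Tnfrsf23, a decoy receptor gene, was higher on reads by the study's thresholds (1.98, unadjusted p = 0.0167, limma-voom adjusted p = 0.0517). Cars, the cysteinyl-tRNA synthetase beyond Phlda2, fell by 0.46 (SE 0.026, adjusted p = 3.11e-05), and Ctsd, a lysosomal protease at the H19 end, fell by 0.24 (SE 0.044, adjusted p = 0.0040). Nap1l4, a histone chaperone between Phlda2 and Cars, gave 4.7e-04 with an interval on reads of -0.077 to 0.087. Tssc4, next to Cd81 and overlapping Trpm5, gave 0.07 (adjusted p = 0.574). Between Cd81 and Cars lie Kcnq1ot1 (-0.53, called on reads), Slc22a18 (-0.51, not called) and Cdkn1c as well as Phlda2, Tssc4 and Nap1l4. Over chromosome 7 as a whole 747 genes were tested on RPKM, of which 174 rose and 110 fell, with a median log2 fold change of 0.046 against 0.011 for all genes.

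**Figure D4:**
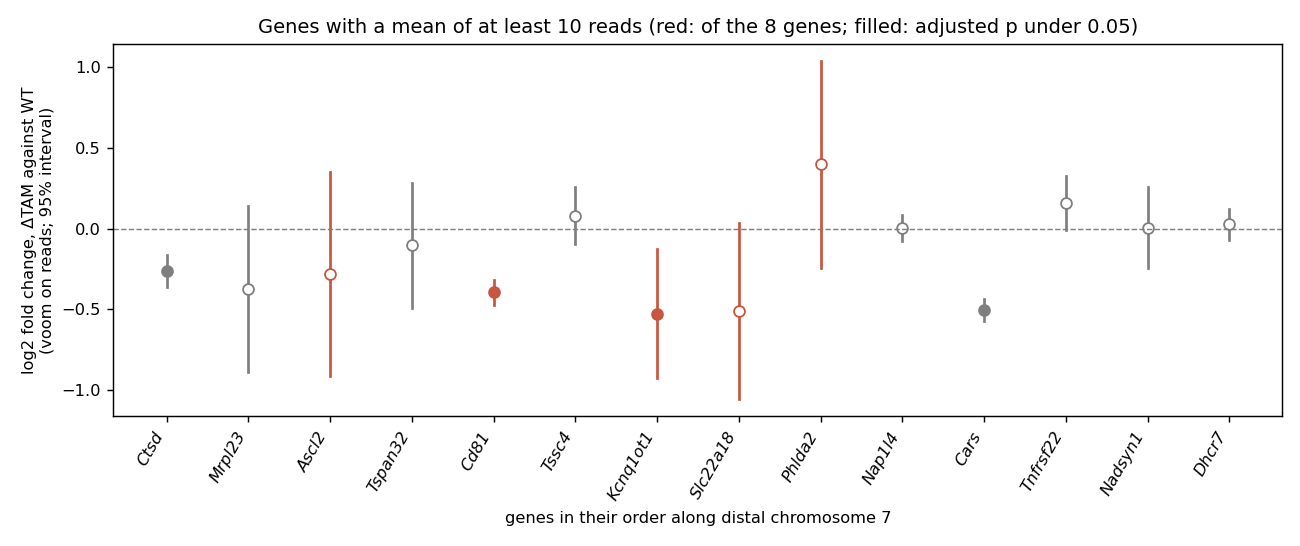
Log2 fold change of ΔTAM against WT (limma-voom on reads, 95% intervals) for genes averaging 10 reads or more, in their order along distal chromosome 7, the imprinted genes in red. Filled points passed an adjusted p of 0.05: Ctsd, Cd81, Kcnq1ot1 and Cars, all lower, with Tssc4, Nap1l4, Tnfrsf22, Nadsyn1 and Dhcr7 near 0 between or beside them.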

How the data were processed

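RNA-seq of 4 ESC + F/H-BAZ2Ar WT and 4 ESC + F/H-BAZ2Ar ΔTAM libraries (stranded poly(A) kit) was analysed. The authors trimmed reads (Trimmomatic 0.36 in the submitters' processing notes), aligned them to mm10 with STAR, took exon coverage for every gene and deposited RPKM for each library. Annotation release, strand use and multi-mapping are not given in the sources used here. Of 51288 entries, 386 repeats were set aside. Multiplied by genomic span, the RPKM of a library were whole-number multiples of a common unit (tolerance 0.05), so reads were recovered. No count model was run, since the deposited unit is RPKM.

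Conditions were compared with limma 3.58.1 in R 4.3.3 (lmFit, eBayes with trend, Benjamini-Hochberg adjustment over all genes tested) on log2(RPKM + 0.1), which understates changes of low genes, and with limma-voom on reads. Exact permutation tests (Python 3.11.15) were two-sided over the 8 libraries. Exon lengths come from GENCODE vM21, cut to the deposited span. Same-numbered libraries deviated together (r = 0.33, 0.14, 0.20 and 0.24 over 2148 genes), so replicate blocks were run as an alternative, beside other pseudocounts, filters, scalings and left-out libraries. Named were all 8 genes, the neighbours called, up to 4 of the largest called changes of each list, and for Cd81, Ascl2 and Phlda2 the 2 genes with the highest r. Members and lists were chosen with earlier results of these data known. Further genes (Cd9, Cd151, Tssc4, Nap1l4, Igf2r, Igf1r, Insr, Igf1, Ins2, Grb10, Zfp57, Trim28, Dnmt1, Ctcf, Dnmt3l, Zrsr1, Dlk1, Dio3, Rtl1, Sgce, Tnfrsf23, the markers) were named after their values were seen.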

Additional observations from a re-analysis of the deposited data

How the results depend on the processing

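Cd81 passed in every setting run, with log2 fold changes of -0.42 to -0.28, the latter with a pseudocount of 1 RPKM. With all libraries, limma on RPKM called 1 of the 8 genes, limma-voom called 2 among genes averaging 10 reads or more (Cd81 and Kcnq1ot1), 2 with total-read scaling, 3 among genes averaging 1 read or more, and 2 when the replicate block was added to that fit, an alternative chosen after seeing the data, as were the fits on reads without single libraries. Leaving out single libraries gave 1 to 3 called genes over both fits, 2 on RPKM without WT replicate 3 (Ascl2) or WT replicate 4 (Phlda2). The replicate block changed no other call among the 8 genes. Over all genes 3225 were called, 989 with a filter at 1 RPKM, 5551, 5570 and 5745 in the 3 voom fits, 2796 with the replicate block on RPKM, and 2618 to 3051 without single libraries. None of the 8 genes changed direction in the settings run. Depth limits the 7 genes other than Cd81, at 0 to 79 reads per library.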

Other observations

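Of 19 factors that establish or keep imprints, 16 were tested on RPKM, and 7 rose and 4 fell (limma), where 35.8% of all genes were called in either direction. On reads all 19 were tested, and 7 rose and 6 fell, where 32% of all genes were called. Dppa3, which protects imprints from demethylation in the zygote, rose by 1.80 on the log2 scale (SE 0.075, adjusted p = 8.94e-06), and the de novo DNA methyltransferase Dnmt3b rose by 0.54 (SE 0.037, adjusted p = 6.06e-05). Dnmt3l, the cofactor of de novo methylation, was tested only on reads and fell by 0.76 (SE 0.14). Zfp57, the zinc finger protein that binds methylated control regions, fell by 0.18 (SE 0.028), and its partner Trim28 rose by 0.19 (SE 0.046). Dnmt1, the maintenance methyltransferase, gave -0.03 (adjusted p = 0.309). Ctcf, which binds the H19 control region, rose by 0.13 (SE 0.025).

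Of 25 imprinted genes elsewhere, Igf2r and Grb10 among them, 13 were tested on RPKM, and 2 rose and 8 fell (19.9% and 15.9% of all genes did), with a median log2 fold change of -0.23 against 0.011 over all genes. On reads 24 were tested, and 6 rose and 12 fell, against 16.2% higher and 15.8% lower of all genes. Meg3 and Rian, noncoding RNAs of the Dlk1-Dio3 locus, fell by 0.52 (SE 0.067) and 0.49 (SE 0.055), and Peg10, a retrotransposon-derived placental gene, by 0.51 (SE 0.071). Dlk1 (5 to 20 reads per library) and Dio3 (2 to 10, conditions overlapping) of the first locus, tested only on reads, rose by 1.17 (SE 0.34) and 1.28 (SE 0.47). Rtl1 of that locus, also tested only on reads (15 to 48 per library), fell by 0.53 (SE 0.20, limma-voom adjusted p = 0.0466). Sgce, which neighbours Peg10, fell by 1.51 on reads (SE 0.16). Nnat, a neuronal membrane protein gene, rose by 0.54 (SE 0.15) and Zrsr1 by 0.33 (SE 0.079). Whether imprinted genes differ from other genes in this was not tested.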
